A study of Mus musculus with 37 samples.

Results

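The acute response of wild-type mouse colon to dextran sodium sulphate (DSS) was described from 8 of the study's 37 arrays. They were chosen by their labels and not by any measured value: 5 arrays of C57BL/6J wild-type mice in the acute DSS group, and 3 arrays of wild-type mice in the acute control group. Each array is an Affymetrix Mouse Gene 1.0 ST array of RNA from the snap frozen colon of 1 animal. The DSS was given orally, and the labels state no dose, no days of exposure, no age, no sex and nothing given to the controls. For comparison, 2 further sets of arrays were used. The first was an acute DSS group and an acute control group of Timp1 knockout mice (B6.129S4-Timp1tm1Pds/J, which carry a targeted Timp1 allele throughout the body), with 6 DSS and 3 control arrays. The second was a chronic DSS group and a chronic control group of wild-type mice, with 5 arrays each.

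DSS is a sulphated polysaccharide that injures the lining of the colon, after which luminal bacteria reach the tissue and neutrophils and monocytes enter from the blood. Stromal cells, endothelium and immune cells then release cytokines, and the epithelium that remains loses part of its absorptive and secretory programme while it closes the wound. In healthy colon the absorptive cells burn butyrate, a fatty acid made by bacteria, and goblet cells secrete a heavily glycosylated mucus. In whole tissue, fewer cells of a type and less RNA per cell cannot be told apart.

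Values are log2 signals, so that a step of 1 is a 2-fold change. Where the arrays are listed, the values run from replicate 1 to replicate 5 for DSS mice and from replicate 1 to replicate 3 for controls. Differences are DSS minus control, on the log2 scale, ± the standard error (SE) of a linear model over all 19938 genes (limma, n = 5 and 3), with p values adjusted over all genes. A gene is said to rise or fall where the adjusted p was under 0.05. The replicates were labelled as separate animals, and their number limits the precision of every value.

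The label of the tissue was checked against marker genes. The 8 colon epithelium markers had mean signals of 11.12, 12.40, 9.84, 12.36 and 12.37 in DSS mice, against 12.44, 12.55 and 12.40 in controls. Their level was lowest in DSS replicate 3 and then in DSS replicate 1, while DSS replicates 2, 4 and 5 lay at the lower edge of the controls. Of the 8 markers 4 fell and 0 rose. The 4 smooth muscle markers had means of 12.85, 12.01, 12.28, 12.51 and 12.42 in DSS mice, against 12.61, 12.54 and 12.68 in controls, which overlap. Of 8 small intestine markers 2 rose and 2 fell, with means of 6.69, 7.45, 6.69, 7.05 and 7.19 in DSS mice, against 6.93, 6.97 and 6.70 in controls, where the 25th percentile of all gene signals was 6.76. DSS replicate 2 had the highest mean of that list, and the groups overlapped. Of 9 squamous epithelium markers 0 rose and 2 fell, with means of 6.78, 6.90, 6.87, 6.78 and 6.85 in DSS mice, against 6.92, 6.80 and 6.79 in controls. Of 6 skeletal muscle markers 0 rose and 1 fell, with means of 7.50, 7.54, 7.46, 7.63 and 7.58 in DSS mice, against 7.48, 7.48 and 7.62 in controls. Of the 6 measured adipocyte markers 1 rose, and their means were 8.92, 9.06, 7.23, 8.47 and 9.20 in DSS mice, against 7.61, 7.47 and 8.20 in controls. Of 5 lymphoid follicle markers 1 rose, with means of 9.95, 7.92, 10.99, 9.34 and 10.25 in DSS mice, against 9.15, 9.11 and 7.48 in controls. Of 5 pancreatic acinar markers 1 rose and 1 fell, with means of 7.20, 7.53, 7.26, 7.59 and 7.40 in DSS mice, against 7.90, 7.85 and 7.75 in controls. Both measured erythroid markers rose, with means of 8.60, 8.56, 7.98, 7.45 and 7.81 in DSS mice, against 7.06, 7.06 and 7.04 in controls. The part that these other cells play in the results below was not tested.

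The response was broad. In DSS mice 3863 genes were higher (19.4% of those tested) and 4348 were lower (21.8%), 41.2% in all, with a median difference of 0.01 over all genes. Of these, 580 genes (2.91%) were at least 2-fold higher and 554 (2.78%) at least 2-fold lower. All DSS values lay above all control values for 17.7% of genes and below them for 21.4%. The rise counted 2575 genes without control replicate 3. In a fit on the 8 arrays alone, which does not borrow the spread of the other groups, 2565 genes (12.9%) were higher and 3186 (16.0%) were lower. Adjusted p values from that fit are given below where they end a call.

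The 5 DSS mice responded by very different amounts. Set against the mean of the controls, 1009 genes were at least 2-fold higher and 1007 at least 2-fold lower in DSS replicate 1. In replicate 2 there were 537 and 427 such genes, in replicate 3 there were 1350 and 1469, in replicate 4 there were 248 and 249, and in replicate 5 there were 426 and 334. Among the controls, measured against the mean they are part of, the counts were between 0 and 7. DSS replicate 3 held the highest DSS value of 46.3% of the genes that rose and the lowest DSS value of 54.3% of the genes that fell. DSS replicate 4 had the fewest genes past the 2-fold mark in both directions.

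**Figure D1:**
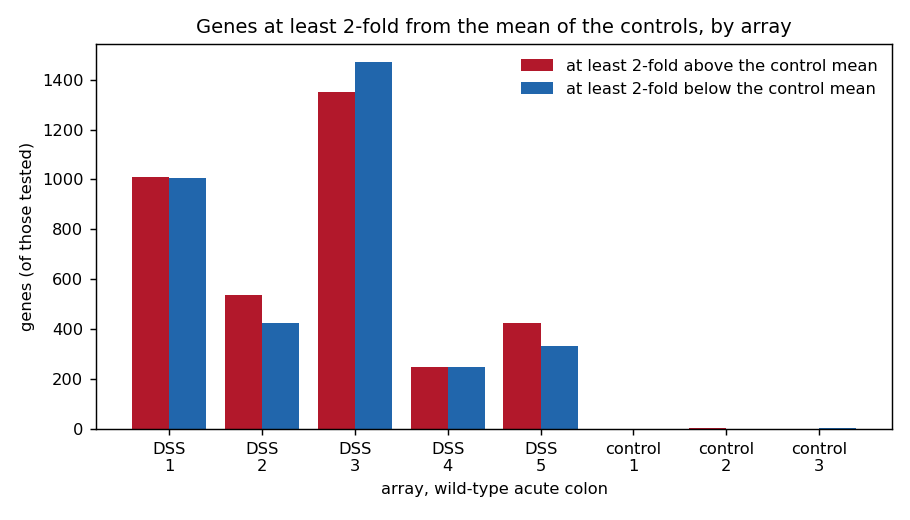
Number of genes, of 19938, at least 2-fold above (red) or below (blue) the mean of the 3 controls, for each of the 8 wild-type acute arrays. The 5 DSS arrays range from 248 to 1350 genes above and from 249 to 1469 below, and each control array has at most 7.

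The spread among animals was also larger under DSS. The median SD over genes was 0.136 among the 5 DSS arrays and 0.0934 among the 3 controls, and 69.8% of genes had the larger SD in DSS mice. At equal spread the median SD of 3 arrays tends to be lower than that of 5. Part of this difference may therefore come from the group sizes. An SD of at least 1 was found for 354 genes in DSS mice and for 12 genes in controls. The fitted model uses 1 spread per gene for all groups, so that it understates the DSS spread of such genes.

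Some genes nevertheless fell to nearly the same level in every DSS mouse. Casp14, a caspase of epithelial differentiation, had 6.19, 6.17, 6.23, 6.20 and 6.30 in DSS mice, against 9.80, 8.63 and 10.02 in controls. The 5 DSS values were nearly equal, at a level near the low end of the array, and the controls differed more among themselves. Mptx1, mucosal pentraxin, had 5.73, 5.21, 5.46, 5.17 and 5.39 in DSS mice and 12.87, 12.54 and 12.65 in controls. Its DSS values all lay under 5.83, the 10th percentile of gene signals over the 8 arrays, where no order is read from them. Il22ra2, the soluble decoy receptor that binds interleukin 22, had 5.96, 5.98, 5.87, 5.89 and 5.87 in DSS mice, against 7.50, 7.57 and 7.59 in controls (-1.64 ± 0.28, adjusted p = 2.49e-05). Its DSS values lay just above that 10th percentile, where a low signal may itself make them even. C1qtnf3, a secreted protein of the C1q and TNF-related family, had 7.08, 7.03, 7.19, 7.12 and 6.99 in DSS mice, against 8.77, 8.97 and 8.91 in controls. Slc36a1, a proton-coupled amino acid transporter, had DSS values of 9.65 to 9.73 at a bright signal, against 10.44 to 11.03 in controls. Fxyd4, a regulator of the sodium pump, Itih2, a hyaluronan-binding protein of plasma, Cps1, the first enzyme of the urea cycle, St8sia5, a ganglioside sialyltransferase, and Slc35e3, a member of the nucleotide-sugar transporter family, complete the 10 genes whose difference was largest relative to the DSS spread. All 10 fell, with differences between -7.29 and -1.09 and with DSS SDs of 0.03 to 0.22. Of the 1106 called genes with an established name and at least 2-fold difference, 67 had a DSS SD under 0.2 and 207 had one of at least 1.

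The 10 genes with the largest DSS spread moved in both directions. Mep1a, the alpha subunit of the brush border protease meprin, had 7.88, 11.56, 5.89, 11.29 and 10.94 in DSS mice, against 11.54, 11.73 and 11.68 in controls. DSS replicates 1 and 3 were far below the controls, and DSS replicate 2 lay among them. The sulphotransferase Sult1d1 had 8.35, 11.75, 6.21, 11.26 and 11.20 in DSS mice, against 11.58, 11.36 and 11.55 in controls, again with replicates 1 and 3 low and the others near the controls. Aqp8, the water channel of surface colonocytes, had 8.48, 11.72, 7.09, 11.38 and 11.45 in DSS mice, against 12.51, 12.65 and 12.61 in controls, where all DSS values lay below the controls. Saa1, an acute-phase serum amyloid, had 6.60, 10.06, 4.40, 8.08 and 8.13 in DSS mice, against 10.25, 9.75 and 10.24 in controls. The antibacterial lectin Reg3b had 10.65, 13.99, 7.57, 11.92 and 12.09 in DSS mice, against 6.14, 5.86 and 5.97 in controls, highest in replicate 2 and lowest in replicate 3, and Reg3g followed the same order at both ends with 10.44, 13.57, 7.56, 11.80 and 11.61 in DSS mice, against 5.85, 6.35 and 4.94 in controls. The chemokine Ccl3 was highest in DSS replicate 3, with 9.92, 8.80, 12.83, 7.63 and 8.10 in DSS mice, against 6.64, 6.59 and 7.11 in controls. The other members of this group of 10 were Sectm1b, Hsd3b3 and Hao2, an oxidase of hydroxy acids. Of the 10, only Reg3b and Reg3g passed the test when the 8 arrays were fitted alone (adjusted p = 0.016 and 0.0139), and the others had adjusted p values of 0.0521 for Hao2 to 0.295 for Sult1d1. Leaving out 1 array ended the calls of Mep1a without any one of DSS replicates 1 and 3 and control replicates 2 and 3 (adjusted p between 0.0626 and 0.0859), Sult1d1 without any one of DSS replicates 1 and 3 and control replicates 1, 2 and 3 (adjusted p between 0.0723 and 0.142) and Hsd3b3 without any one of DSS replicates 1 and 3 and control replicates 1, 2 and 3 (adjusted p between 0.0667 and 0.168).

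**Figure D2:**
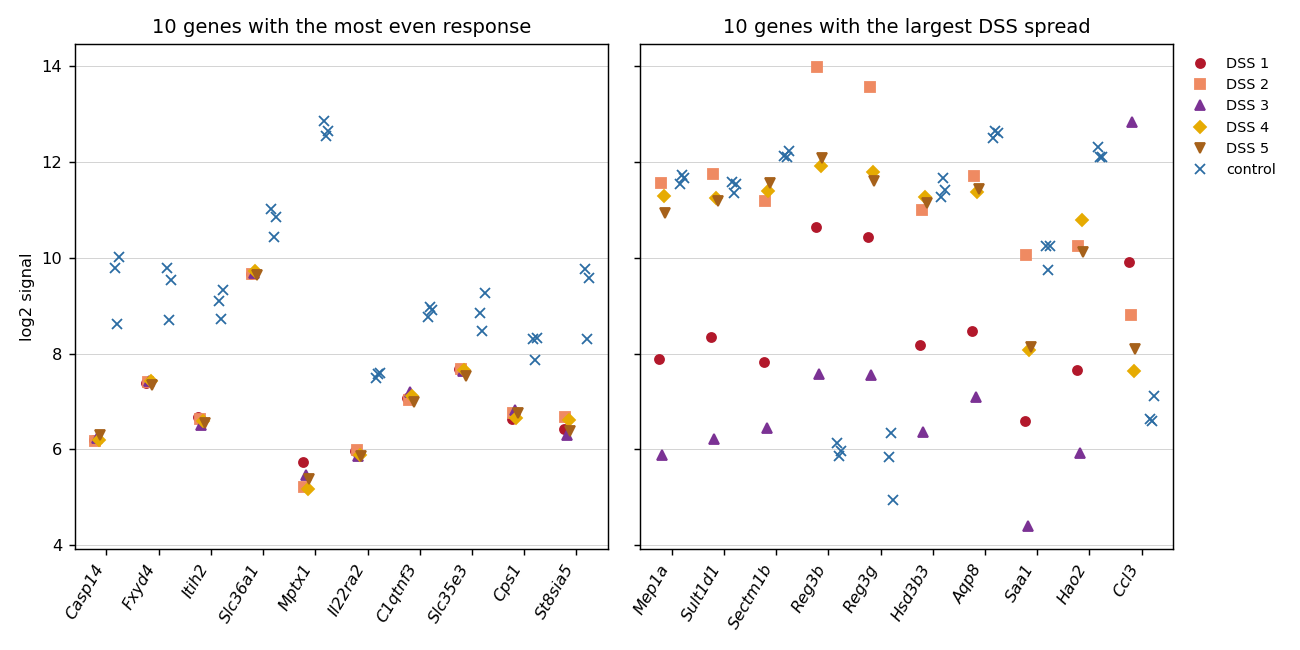
Log2 signal of 20 genes in the 8 wild-type acute arrays. On the left are the 10 called genes, at least 2-fold changed, whose difference was largest relative to the SD of the 5 DSS arrays, and on the right the 10 with the largest DSS SD. DSS arrays have 1 symbol each and the 3 controls are crosses. The left-hand genes lie in a narrow band in all DSS arrays (SDs of 0.03 to 0.22), while on the right DSS replicates 1 and 3 lie well below the other DSS arrays for most genes.

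Behind the 10 strongest genes in each direction, the genes that rose included some of matrix turnover, neutrophils and growth factor control. Cemip, which degrades hyaluronan, had 10.71, 11.89, 11.10, 9.61 and 9.50 in DSS mice, against 6.63, 6.60 and 6.69 in controls (15.2-fold, 3.92 ± 0.63, adjusted p = 1.45e-05). Its highest value was in DSS replicate 2, and DSS and control values did not overlap. The neutrophil collagenase Mmp8 (3.82 ± 0.61) and the stromelysin Mmp3 (3.72 ± 0.68) rose, as did S100a9 (3.61 ± 0.57), a subunit of calprotectin. Igfbp5, a binding protein of insulin-like growth factors, had 13.36, 13.01, 13.67, 12.39 and 12.84 in DSS mice, against 9.83, 9.77 and 9.98 in controls. Pappa, the protease that cleaves such binding proteins, had 12.01, 11.65, 11.75, 10.32 and 10.96 in DSS mice, against 8.38, 8.17 and 8.34 in controls. All 5 DSS mice were far above all controls for both genes, with differences of 3.20 ± 0.51 and 3.04 ± 0.37 (adjusted p = 1.18e-05 and 3.81e-07). Serpina3n, an inhibitor of serine proteases such as neutrophil elastase and granzyme B in mouse, had 13.69, 13.68, 13.91, 12.80 and 13.33 in DSS mice, against 10.26, 10.25 and 10.16 in controls. The BMP antagonist Chrdl2 rose by 3.38 ± 0.40 (adjusted p = 2.06e-07), Lgi2, a secreted leucine-rich repeat protein, rose by 3.13 ± 0.42, and the EGF family ligand Ereg rose by 3.43 ± 0.57. Clca4b, an epithelial calcium-activated chloride channel regulator, was highest in DSS replicate 2 and lowest in replicate 3, with 11.48, 12.67, 10.52, 11.93 and 12.01 in DSS mice, against 7.95, 8.37 and 8.26 in controls. Retnlb, the resistin-like protein of goblet cells, had 9.04, 11.16, 8.18, 11.79 and 10.87 in DSS mice, against 6.93, 7.00 and 6.74 in controls, with its lowest DSS values in replicates 3 and 1. Chil3, a chitinase-like protein of alternatively activated macrophages and neutrophils, had 9.51, 9.67, 9.97, 6.30 and 6.52 in DSS mice, against 5.32, 5.23 and 5.37 in controls (3.08 ± 0.66), and its DSS replicates 4 and 5 were the closest to the controls. All its control values were under the 10th percentile of gene signals (5.83), so that the difference may be understated. The remaining members of ranks 11 to 30 were Il1b, Clec4e, Il1a, Cxcl5, Ifitm6, Timp1 and Lilr4b, which rose by 3.01 to 3.55.

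Among the genes that fell at ranks 11 to 30, several carry solutes or hormones in colonic epithelium. Trpm6, the magnesium channel of the apical membrane, had 7.52, 9.31, 7.12, 7.54 and 8.02 in DSS mice, against 11.28, 11.07 and 11.22 in controls (-3.29 ± 0.35, adjusted p = 4.65e-08). DSS replicate 2 was the least low, and no DSS value reached the controls. The phosphate transporter Slc34a2 (-2.94 ± 0.51) and the peptide transporter Slc15a1 (-2.92 ± 0.71) also fell. Insl5, an insulin-like peptide of colonic L cells, had 8.60, 7.11, 9.23, 8.61 and 8.89 in DSS mice, against 11.39, 11.42 and 11.47 in controls. Unlike most genes that fell, it was lowest in DSS replicate 2 and highest in replicate 3. Dio1, which deiodinates thyroid hormone, had 5.73, 7.00, 5.93, 7.74 and 7.01 in DSS mice, against 10.08, 9.89 and 10.35 in controls (-3.43 ± 0.40, adjusted p = 1.39e-07). B3gnt7, an enzyme of keratan sulphate and mucin glycan extension, had 8.43, 8.77, 8.67, 9.16 and 8.95 in DSS mice, against 11.81, 11.74 and 11.63 in controls, an even fall with a DSS SD of 0.28. Smpx, a small protein known from muscle, had 6.01, 6.40, 5.91, 6.73 and 6.29 in DSS mice, against 9.32, 9.12 and 9.50 in controls (-3.04 ± 0.29, adjusted p = 1.28e-08). The gasdermin Gsdmc4 fell (-3.32 ± 0.32), the selenium-binding Selenbp1 (-3.20 ± 0.44), the fucosyltransferase Fut9 (-2.78 ± 0.40) and the whey acidic protein family member Wfdc2 (-2.99 ± 0.34). The others were Cyp2f2, Casp14, Hao2, Eno3, Sval1, Naaladl1, Nxpe2, Capn13 and Acsm3, at -2.77 to -3.46. The call of Sval1 ended without control replicate 3 (adjusted p = 0.0532).

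The pathways were described with 24 gene lists, 561 of whose 604 genes were measured. For every list the shares over all genes are 19.4% higher and 21.8% lower. In the fit on the 8 arrays alone they are 12.9% and 16.0%. The plot of list levels in each array shows that the DSS array farthest from the controls was not the same for every list. It was replicate 3 for lists such as interleukin 6, adhesion, coagulation, citric acid cycle and mucin sugars, replicate 2 for the EGF family, NADPH oxidases, metal handling and hypoxia, and replicate 5 for the clock.

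**Figure D3:**
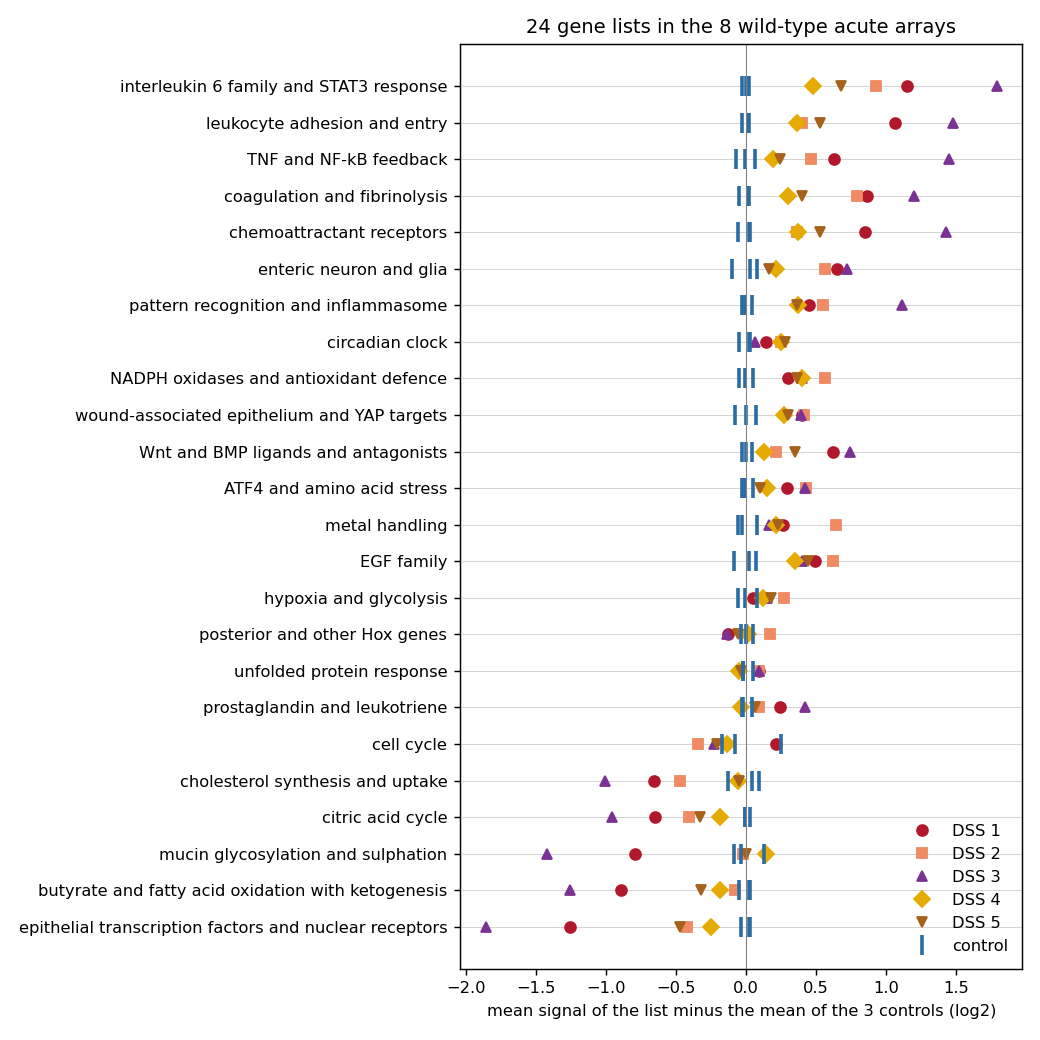
Mean log2 signal of each of 24 gene lists minus the mean of the 3 controls, for the 8 wild-type acute arrays, sorted by the median difference of the list. Coloured symbols are the DSS arrays and bars the controls. The interleukin 6 list lies highest and the list of epithelial transcription factors lowest, with DSS replicate 3 outermost in both, while DSS replicate 2 is outermost for metal handling and the EGF family.

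Interleukin 6 and its relatives signal through the shared receptor chain Il6st to the transcription factor Stat3, which induces its own brake Socs3. Of the 21 measured genes of the family and its response, 15 rose (71.4%) and 0 fell, against 19.4% and 21.8% of all genes. Their median difference was 0.85, against 0.01 over all genes. In the fit on the 8 arrays alone 10 rose. Il6 itself had 7.55, 7.53, 9.35, 6.42 and 5.84 in DSS mice, against 4.68, 4.71 and 4.75 in controls (2.62 ± 0.56, adjusted p = 0.000367). All DSS mice were above all controls, whose signals were under the 10th percentile of gene signals (5.83), so that the difference may be understated and no fold is given. The DSS values span more than 3 units. Il11, the family member made by activated fibroblasts, had 9.52, 10.22, 10.27, 8.55 and 8.84 in DSS mice, against 6.72, 6.76 and 6.70 in controls (2.75 ± 0.37, adjusted p = 1.31e-06). Osm, oncostatin M, a product of myeloid cells, had 8.12, 7.92, 8.85, 7.36 and 7.41 in DSS mice, against 6.66, 6.65 and 6.38 in controls. Its receptor Osmr had 11.27, 10.93, 11.78, 9.98 and 10.45 in DSS mice, against 8.80, 8.78 and 8.75 in controls, a rise of 2.11 ± 0.34 without overlap. The receptor chain Il6st rose by 1.06 ± 0.20 and Stat3 by 0.59 ± 0.13. Socs3 had 11.06, 11.32, 12.25, 9.45 and 10.12 in DSS mice, against 8.30, 8.32 and 8.15 in controls, in the order of DSS replicates 3, 2, 1, 5 and 4. The kinase Pim1, a Stat3 target, rose by 1.35 ± 0.27, and the interleukin 4 receptor chain Il4ra rose by 1.50 ± 0.20 in all 5 mice. The kinases of the receptors moved little: Jak1 rose by 0.29 ± 0.11, Jak2 rose by 0.30 ± 0.12 and Tyk2 was at -0.22 ± 0.10 (adjusted p = 0.0628). Lif, at 0.30 ± 0.14, and Il6ra, at 0.25 ± 0.14, did not pass the test (adjusted p = 0.0752 and 0.153). In the fit on the 8 arrays, the calls of Jak1 and Jak2 ended (adjusted p = 0.16 and 0.19 in that order). The call of Jak1 ended without any one of DSS replicates 1 and 3 and control replicates 1, 2 and 3 (adjusted p between 0.0808 and 0.151). That of Jak2 ended without any one of DSS replicate 3 and control replicates 1 and 2 (adjusted p between 0.114 and 0.157).

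Tumour necrosis factor acts through receptors 1 and 2 and NF-kB, whose targets include its own inhibitors. Of 21 measured genes 14 rose (66.7%) and 0 fell (median 0.65), against 19.4% and 21.8% of all genes. The count was lower in other settings: 5 rose with the 8 arrays alone and 8 without control replicate 3, and the median was 0.43 without DSS replicate 3. Tnf was one of the weaker genes at 0.75 ± 0.29 (adjusted p = 0.0352), with 7.97, 8.16, 9.48, 7.83 and 7.61 in DSS mice, against 7.42, 7.62 and 7.34 in controls. Its receptors Tnfrsf1a, at 11.12, 11.08, 11.44, 10.65 and 10.83 in DSS mice, against 10.13, 10.05 and 10.20 in controls, and Tnfrsf1b, at 10.51, 10.00, 11.33, 9.65 and 9.82 in DSS mice, against 9.20, 9.11 and 9.01 in controls, were higher in every DSS mouse. The NF-kB target Ier3 had 9.39, 9.61, 10.19, 8.60 and 8.80 in DSS mice, against 7.89, 7.63 and 7.83 in controls (1.54 ± 0.26, adjusted p = 2.52e-05). Tnfaip2 rose by 1.73 ± 0.36 and the inhibitor Nfkbia by 0.67 ± 0.25. The deubiquitinase Tnfaip3 (0.17 ± 0.26), the subunit Rela (0.22 ± 0.13) and the apoptosis inhibitor Birc3 (0.33 ± 0.18) did not pass the test (adjusted p = 0.615, 0.182 and 0.15). Birc3 was raised in DSS replicate 3 and near the controls elsewhere, with 10.02, 10.02, 10.76, 9.72 and 9.78 in DSS mice, against 9.79, 9.70 and 9.71 in controls. Without the other groups in the fit, the calls of Tnf and Nfkbia ended (adjusted p = 0.164 and 0.196 in that order). The call of Tnf ended without any one of DSS replicate 3 and control replicates 1, 2 and 3 (adjusted p between 0.054 and 0.148). That of Nfkbia ended without any one of DSS replicates 1, 2 and 3 and control replicates 1 and 3 (adjusted p between 0.0573 and 0.124).

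Receptors for microbial products detect infection. Of 29 measured genes 13 rose and 6 fell (median 0.37), shares of 44.8% and 20.7%, against 19.4% and 21.8% of all genes. With the 8 arrays alone 7 rose and 1 fell. The lectin receptors Clec4e (9.82, 8.80, 11.75, 7.60 and 7.43 in DSS mice, against 5.91, 5.68 and 5.61 in controls) and Clec4d (8.88, 8.77, 10.64, 7.67 and 7.77 in DSS mice, against 6.07, 6.07 and 5.83 in controls) and the amplifying receptor Trem1 (9.03, 8.20, 10.72, 7.58 and 7.69 in DSS mice, against 5.89, 5.99 and 5.88 in controls), all known from neutrophils and macrophages, were higher in every DSS mouse and highest in replicate 3. Tlr13, a receptor for bacterial ribosomal RNA, rose by 1.75 ± 0.33 and Tlr8, a receptor for single-stranded RNA, by 1.28 ± 0.31. Nlrp3, the sensor of an inflammasome, rose by 1.27 ± 0.33. Its downstream partners fell: the adaptor Pycard (-1.03 ± 0.24), Casp1 (-0.92 ± 0.23) and the substrate Il18 (-1.46 ± 0.48), along with the epithelial sensor Nlrp6 (-1.10 ± 0.31). Il18 had 8.26, 10.67, 7.75, 9.63 and 9.35 in DSS mice, against 10.60, 10.47 and 10.70 in controls, lowest in DSS replicates 3 and 1, which were also the arrays with the lowest epithelial marker means. The part of the epithelial marker level in the fall of Il18 was not tested. Tlr4, the receptor for lipopolysaccharide, was at 0.37 ± 0.20 (adjusted p = 0.143). On these 8 arrays alone, the calls of Nlrp3, Pycard, Casp1, Il18 and Nlrp6 ended (adjusted p = 0.117, 0.106, 0.0997, 0.0936 and 0.153 in that order). The call of Il18 ended without any one of DSS replicate 3 and control replicate 3 (adjusted p between 0.0573 and 0.0591).

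Leukocytes leave the blood by binding selectins, then integrin ligands, on endothelium. Of 19 measured adhesion genes 13 rose (68.4%) and 1 fell (5.26%), against 19.4% and 21.8% of all genes. In the fit on the 8 arrays alone 8 rose and 1 fell. The median was 0.84, and 0.54 without DSS replicate 3. Vcam1, an endothelial and stromal integrin ligand, had 10.99, 9.83, 11.29, 9.77 and 10.29 in DSS mice, against 8.47, 8.28 and 8.25 in controls (4.29-fold, 2.10 ± 0.32, adjusted p = 6.94e-06). The integrin chains Itgam (2.04 ± 0.37) and Itgb2 (1.42 ± 0.34), which pair in neutrophils and macrophages, rose with the ligand Icam1 (1.26 ± 0.29). Itgam had 10.21, 9.82, 11.27, 8.89 and 9.04 in DSS mice, against 7.67, 7.74 and 8.02 in controls. Madcam1, the gut addressin for lymphocytes, rose by 0.85 ± 0.29, and endothelial Sele rose by 0.77 ± 0.21. The member that fell was F11r (-0.70 ± 0.11), a junction protein of epithelium. Itgax, an integrin of dendritic cells, was at 0.23 ± 0.29 (adjusted p = 0.561), raised in DSS replicate 3 alone with 7.90, 7.47, 9.40, 7.76 and 7.75 in DSS mice, against 7.86, 7.75 and 7.88 in controls. When the 8 arrays were fitted alone, the calls of Madcam1 and Sele ended (adjusted p = 0.0503 and 0.0841 in that order). The call of Madcam1 ended without any one of DSS replicate 3 and control replicate 3 (adjusted p between 0.0652 and 0.112).

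Of 23 measured chemoattractant receptors 12 rose (52.2%) and 0 fell, against 19.4% and 21.8% of all genes. With the 8 arrays alone 7 rose. The median was 0.54, and 0.35 without control replicate 3. Cxcr2, the neutrophil receptor for CXC chemokines, had 8.96, 7.73, 9.81, 7.25 and 7.58 in DSS mice, against 5.14, 5.34 and 5.43 in controls (2.96 ± 0.57, adjusted p = 0.000117). Every DSS mouse was above every control, and the controls were again under the 10th percentile. Ccr2, which draws monocytes, had 8.79, 7.51, 9.53, 7.92 and 8.08 in DSS mice, against 6.82, 6.57 and 6.90 in controls. The complement receptors C5ar1 and C3ar1 rose by 1.43 ± 0.30 and 1.34 ± 0.31, and Ccr1, of monocytes and neutrophils, rose by 1.40 ± 0.34 (adjusted p = 0.0016, and 0.0559 with the 8 arrays alone). Cx3cr1, the receptor of resident macrophages, was at 0.04 ± 0.14 (adjusted p = 0.817), with DSS values of 8.17 to 8.91 inside and around the control values of 8.45 to 8.80.

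Prostaglandin E2 is made from arachidonic acid by Ptgs2 and Ptges and broken down by Hpgd after uptake by Slco2a1. Ptgs2 and Ptges rose and Hpgd fell. Ptgs2 had 12.65, 12.35, 12.97, 10.80 and 10.93 in DSS mice, against 9.80, 9.01 and 9.08 in controls (6.24-fold, 2.64 ± 0.49, adjusted p = 8.61e-05), with replicates 4 and 5 closest to the controls. Ptges had 10.62, 10.61, 11.29, 9.55 and 9.55 in DSS mice, against 8.89, 8.91 and 9.23 in controls (1.31 ± 0.35, adjusted p = 0.00342). Hpgd had 9.91, 11.40, 9.14, 11.55 and 11.54 in DSS mice, against 12.03, 11.83 and 12.01 in controls (-1.25 ± 0.34, adjusted p = 0.00416, and 0.129 with the 8 arrays alone). The DSS values of Hpgd, an enzyme abundant in colonocytes, were lowest in replicates 3 and 1. Epithelial marker means were lowest in the same arrays, and their part in this fall was not tested. Slco2a1 (0.33 ± 0.15) and the phospholipase Pla2g4a (0.20 ± 0.11) did not pass the test. Of the receptors for prostaglandin E2, Ptger2 rose by 0.73 ± 0.15 and Ptger4 was at -0.31 ± 0.15 (adjusted p = 0.0978). In the leukotriene branch Alox5ap, the partner of 5-lipoxygenase, rose by 1.25 ± 0.33 (adjusted p = 0.0554 with the 8 arrays alone), while Lta4h (-0.59 ± 0.13) and Ltc4s (-0.31 ± 0.11) fell. Of the 26 measured genes 7 rose and 5 fell (median -0.02), shares of 26.9% and 19.2%, against 19.4% and 21.8% of all genes. The number that fell was 3 without control replicate 2, 8 without control replicate 1 and 8 without DSS replicate 3, and 3 with the 8 arrays alone. With the 8 arrays alone, the call of Ltc4s ended (adjusted p = 0.105). The call of Ltc4s ended without any one of DSS replicate 3 and control replicates 2 and 3 (adjusted p between 0.0666 and 0.147).

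Clot formation and its removal by plasmin accompany bleeding in the inflamed colon. Of 22 measured genes, 17 rose (77.3%) and 1 fell (4.55%), against 19.4% and 21.8% of all genes (median 0.63). There were 11 that rose in the 8 arrays alone and 11 without control replicate 2. The urokinase Plau had 10.70, 10.79, 11.05, 9.52 and 9.31 in DSS mice, against 8.65, 8.59 and 8.73 in controls, its receptor Plaur 9.27, 9.59, 10.36, 8.77 and 8.84 in DSS mice, against 7.68, 8.00 and 7.62 in controls, and the tissue activator Plat 10.23, 10.27, 10.09, 9.29 and 9.36 in DSS mice, against 8.36, 8.66 and 8.58 in controls. All 3 plasminogen-activating genes were above the controls in each DSS mouse (differences of 1.62 ± 0.33, 1.60 ± 0.26 and 1.31 ± 0.25). Factor X (F10), known mainly from liver, rose by 1.36 ± 0.31 but had its high value in DSS replicate 3, with 8.19, 8.18, 10.01, 7.21 and 7.31 in DSS mice, against 6.93, 6.79 and 6.74 in controls (adjusted p = 0.104 with the 8 arrays alone). The matrix protein Thbs1 rose by 1.35 ± 0.36, von Willebrand factor (Vwf) by 1.02 ± 0.19 and the transglutaminase F13a1 by 1.02 ± 0.35. Tissue factor (F3), the starter of the cascade, had 10.85, 10.90, 11.36, 10.34 and 10.70 in DSS mice, against 10.52, 10.08 and 10.14 in controls and did not pass (adjusted p = 0.0514). In the fit on the 8 arrays, the call of F13a1 ended (adjusted p = 0.0702). The call of F13a1 ended without any one of DSS replicate 3 and control replicate 2 (adjusted p between 0.0645 and 0.121).

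The EGF family holds ligands that drive epithelial repair through Egfr and its relatives. Ereg had 12.37, 11.67, 12.44, 10.76 and 11.43 in DSS mice, against 8.43, 8.45 and 8.03 in controls and Nrg1, neuregulin, made by stromal cells, had 11.58, 10.87, 11.57, 10.27 and 10.81 in DSS mice, against 8.35, 8.41 and 8.19 in controls (2.70 ± 0.36, adjusted p = 1.03e-06). Both were above 10 in every DSS mouse and under 9 in every control. Btc, betacellulin, had 8.93, 8.52, 8.53, 8.61 and 8.99 in DSS mice, against 7.84, 8.02 and 7.89 in controls (0.80 ± 0.13), and Epgn rose by 0.89 ± 0.22 with most of its height in DSS replicate 3 (7.07, 7.21, 8.40, 6.88 and 6.86 in DSS mice, against 6.45, 6.50 and 6.24 in controls). Hbegf (-0.51 ± 0.22), Tgfa (-0.01 ± 0.13) and Egf (-0.16 ± 0.14) did not pass the test. The receptor Egfr rose by 0.36 ± 0.11, while Erbb2 fell (-0.62 ± 0.23) and Erbb3 was at -0.74 ± 0.31 (adjusted p = 0.0567). The call of Erbb2 ended without any one of DSS replicates 1 and 3 and control replicates 1 and 3 (adjusted p between 0.0851 and 0.124). In all, 6 of 14 measured genes rose and 2 fell (median 0.15, and 0.09 without DSS replicate 1). The shares were 42.9% and 14.3%, against 19.4% and 21.8% of all genes. The fall counted 0 genes without DSS replicate 3, 0 without control replicate 1, 1 without control replicate 3, 0 with the 8 arrays alone and 4 without DSS replicate 2, and the rise 4 with the 8 arrays alone. Without the other groups in the fit, the calls of Epgn and Erbb2 ended (adjusted p = 0.0759 and 0.226 in that order).

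Wnt and BMP factors from the stroma set the position of cells along the crypt. Of 28 measured ligands and antagonists 14 rose and 1 fell (median 0.25, 10 rising with the 8 arrays alone). Rspo3, a ligand that sustains crypt stem cells, had 9.56, 9.35, 10.19, 8.58 and 8.91 in DSS mice, against 8.04, 7.86 and 7.96 in controls (1.36 ± 0.26, adjusted p = 0.000137). Wnt5a, a noncanonical Wnt of wound stroma, had 10.33, 9.47, 9.97, 9.28 and 9.70 in DSS mice, against 8.54, 8.16 and 8.45 in controls. Antagonists rose too. The Wnt antagonist Sfrp1 had 12.58, 11.24, 12.77, 11.30 and 12.22 in DSS mice, against 10.11, 10.26 and 10.33 in controls (1.79 ± 0.38), and the BMP antagonist Grem1 had DSS values of 11.75 to 12.98, against 10.20 to 10.39 in controls (1.93 ± 0.46). Bmp7 rose by 1.63 ± 0.23 and Bmp4 by 0.65 ± 0.24, while Bmp2, known from surface epithelium, was the member that fell (-0.78 ± 0.20). Sfrp2 (-0.76 ± 0.37) and Wnt2b (-0.49 ± 0.24) were lower on average without passing the test (adjusted p = 0.0938 and 0.105). On these 8 arrays alone, the call of Bmp4 ended (adjusted p = 0.0987). The call of Bmp4 ended without any one of DSS replicates 1 and 3 and control replicates 1, 2 and 3 (adjusted p between 0.0508 and 0.125).

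Of 18 measured genes known from regenerating epithelium and from the growth regulator YAP 8 rose and 2 fell (median 0.26). The shares were 44.4% and 11.1%, against 19.4% and 21.8% of all genes. Gja1, connexin 43, had 12.31, 11.31, 12.26, 10.98 and 11.47 in DSS mice, against 9.84, 9.90 and 9.85 in controls (1.80 ± 0.31, adjusted p = 3.99e-05). Sprr1a, a cornified envelope protein induced in stressed epithelium, had 10.00, 10.83, 10.02, 10.42 and 9.99 in DSS mice, against 8.93, 9.51 and 8.83 in controls (1.16 ± 0.33). The alarmin Il33 rose by 1.40 ± 0.42 and Anxa1 by 0.67 ± 0.22. Of the YAP targets, Amotl2 rose by 0.30 ± 0.09 (adjusted p = 0.00871, and 0.0471 with the 8 arrays alone). Ccn1 (0.77 ± 0.41), Ccn2 (-0.38 ± 0.20) and Ankrd1 (-0.17 ± 0.16) did not pass the test. Clu (-0.27 ± 0.41), a marker of revival stem cells in mouse, did not pass either. The call of Anxa1 ended without control replicate 2 (adjusted p = 0.0596).

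Oxidants are made by NADPH oxidases of epithelium and of phagocytes. The colonocyte oxidase Nox1 had 9.54, 9.54, 8.26, 10.94 and 10.24 in DSS mice, against 11.29, 11.17 and 10.99 in controls (-1.45 ± 0.49, adjusted p = 0.0188), and its organiser Noxo1 (-0.61 ± 0.22) and activator Noxa1 (-0.96 ± 0.26) fell with it. With the 8 arrays alone these 3 had adjusted p values of 0.0641, 0.235 and 0.138. The phagocyte oxidase Cybb had 10.92, 9.83, 12.11, 9.99 and 10.21 in DSS mice, against 9.12, 9.14 and 8.91 in controls (1.55 ± 0.43, adjusted p = 0.00425), and its subunits Ncf1 and Ncf4 rose by 0.71 ± 0.23 and 0.85 ± 0.28. Nos2, the inducible nitric oxide synthase, rose by 1.94 ± 0.61, highest in DSS replicates 3 and 2, and its call ended without control replicate 3 (adjusted p = 0.0506). Among the defences, haem oxygenase Hmox1 had 9.56, 10.48, 10.92, 8.79 and 9.15 in DSS mice, against 7.78, 7.73 and 7.80 in controls, extracellular superoxide dismutase Sod3 10.87, 9.69, 11.23, 9.61 and 10.39 in DSS mice, against 8.67, 8.54 and 8.60 in controls and the secreted glutathione peroxidase Gpx3 12.17, 11.59, 12.00, 11.02 and 11.49 in DSS mice, against 9.89, 9.65 and 10.02 in controls. All 3 rose in each mouse, by 2.01 ± 0.30, 1.75 ± 0.35 and 1.80 ± 0.32. The Nrf2 targets Nqo1 (-0.55 ± 0.32), Gclm (-0.01 ± 0.16) and Srxn1 (0.13 ± 0.14) and the epithelial oxidase Duox2 (0.68 ± 0.31) did not pass the test. Of 25 measured genes 10 rose and 4 fell (median 0.27), shares of 40.0% and 16.0%, against 19.4% and 21.8% of all genes. The rise counted 6 genes without control replicate 3, and the fall 2 without DSS replicate 3, 2 without control replicate 1, 2 without control replicate 2 and 1 with the 8 arrays alone. When the 8 arrays were fitted alone, the calls of Ncf1 and Ncf4 ended (adjusted p = 0.094 and 0.12 in that order). The call of Nox1 ended without any one of DSS replicate 3 and control replicates 1 and 2 (adjusted p between 0.0541 and 0.0718). That of Noxo1 ended without any one of DSS replicates 1 and 3 and control replicates 1, 2 and 3 (adjusted p between 0.0649 and 0.115). The call of Ncf1 ended without any one of DSS replicate 3 and control replicate 3 (adjusted p between 0.0509 and 0.0673). That of Ncf4 ended without any one of DSS replicate 3 and control replicate 3 (adjusted p between 0.0664 and 0.0727).

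Inflamed tissue withholds iron and other metals from bacteria. Steap4, a metalloreductase, had 11.09, 11.18, 11.32, 10.03 and 10.27 in DSS mice, against 7.68, 7.82 and 7.85 in controls (7.96-fold, 2.99 ± 0.40, adjusted p = 1.22e-06). Ceruloplasmin (Cp), the copper ferroxidase of plasma, had 11.58, 10.94, 11.46, 9.75 and 10.42 in DSS mice, against 7.80, 7.90 and 8.01 in controls (2.93 ± 0.50). The metallothioneins Mt2 (1.93 ± 0.28) and Mt1 (1.15 ± 0.26) and the zinc importer Slc39a14 (1.16 ± 0.22) rose as well. In the opposite direction, the manganese exporter Slc30a10 had 7.33, 7.89, 7.57, 7.38 and 7.35 in DSS mice, against 8.93, 8.85 and 9.25 in controls, low in all DSS mice alike, and the iron exporter Slc40a1, ferroportin, had 9.36, 11.25, 9.14, 10.96 and 10.89 in DSS mice, against 11.63, 11.32 and 11.77 in controls, with its lowest values in replicates 3 and 1. The zinc importer Slc39a5 fell (-1.40 ± 0.30, adjusted p = 0.0769 with the 8 arrays alone) and hephaestin (Heph) (-0.89 ± 0.30). Ferritin light chain Ftl1 (-0.13 ± 0.11) and the transferrin receptor Tfrc (0.23 ± 0.32) did not pass the test. In all, 10 of 25 measured genes rose and 4 fell (median 0.21), and 1 fell with the 8 arrays alone. The shares were 40.0% and 16.0%, against 19.4% and 21.8% of all genes. With the 8 arrays alone, the calls of Slc40a1 and Heph ended (adjusted p = 0.0968 and 0.247 in that order). The call of Heph ended without any one of DSS replicate 1 and control replicate 3 (adjusted p between 0.0519 and 0.0578).

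Glycolysis and the response to low oxygen share many genes. Pfkfb3, which makes the activator of phosphofructokinase, had 9.50, 9.71, 10.72, 8.16 and 8.55 in DSS mice, against 7.40, 7.39 and 7.37 in controls (3.84-fold, 1.94 ± 0.37, adjusted p = 0.000114), while its paralog Pfkfb4 had 8.26, 8.47, 8.57, 8.41 and 8.26 in DSS mice, against 8.92, 9.40 and 9.41 in controls (-0.85 ± 0.12, adjusted p = 2.18e-06). The 2 enzymes moved in opposite directions in every DSS mouse. The glucose transporter Slc2a3, common in leukocytes, rose by 1.19 ± 0.20, and the lactate exporter Slc16a3 had 9.13, 9.41, 10.11, 9.16 and 9.48 in DSS mice, against 8.13, 8.39 and 8.41 in controls. Aldoc fell (-1.15 ± 0.23). The enolase Eno3, which is not in this list and not in its counts, also fell (-3.20 ± 0.46). The core enzymes Aldoa (-0.12 ± 0.07), Pgam1 (-0.18 ± 0.14) and Pgk1 (0.11 ± 0.16) did not pass the test, and Hif1a (0.61 ± 0.26) and Vegfa (0.14 ± 0.12) did not either. Of 30 measured genes 10 rose and 6 fell, shares of 33.3% and 20%, against 19.4% and 21.8% of all genes. The median was 0.13, and 0.07 without DSS replicate 2. The rise counted 6 genes without control replicate 2, and the fall 2 without DSS replicate 3, 4 without control replicate 2, 3 without control replicate 3, 4 without DSS replicate 1 and 3 with the 8 arrays alone.

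The core of the site that hypoxia-inducible factors bind, ACGTG on either strand, is held in the 250 bases before the start by 18.5% of 27025 genes with a RefSeq promoter (GRCm38.p6). Among the 27 list members with a promoter 19 hold it, including 7 of 7 members that rose and 2 of 6 that fell. Members that did not pass the test hold it too, among them Aldoa, Pgam1, Pgk1, Hif1a and Vegfa. The stretches of 120 bases before a start are shown for Pfkfb3 and Slc16a3, which rose, with the matched bases in capitals (where 2 matches on opposite strands overlap, they form the palindrome CACGTG).
Pfkfb3, upstream start, chr2:11553930-11554049, minus strand: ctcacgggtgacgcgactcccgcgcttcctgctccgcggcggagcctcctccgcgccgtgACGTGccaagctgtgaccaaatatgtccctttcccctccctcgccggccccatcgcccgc
Pfkfb3, downstream start, chr2:11502091-11502210, minus strand: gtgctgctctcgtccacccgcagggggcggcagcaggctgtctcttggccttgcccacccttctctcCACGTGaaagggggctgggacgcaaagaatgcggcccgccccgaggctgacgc
Slc16a3, chr11:120948947-120949066, plus strand: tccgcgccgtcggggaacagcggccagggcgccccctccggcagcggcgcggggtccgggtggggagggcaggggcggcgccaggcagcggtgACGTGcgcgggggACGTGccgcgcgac
These matches describe the letters in the window and not binding.

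Colonocytes take up butyrate and oxidise it in mitochondria. The butyrate transporter Slc5a8 had 9.27, 11.69, 7.83, 11.60 and 11.29 in DSS mice, against 12.84, 12.77 and 12.76 in controls (-2.45 ± 0.48, adjusted p = 0.000137, and 0.0657 with the 8 arrays alone). Ppargc1a, the coactivator of mitochondrial genes, had 7.75, 8.99, 7.16, 9.62 and 9.15 in DSS mice, against 10.69, 10.51 and 10.67 in controls (-2.09 ± 0.32, adjusted p = 6.75e-06). For both, DSS replicates 3 and 1 were lowest, and replicates 2, 4 and 5 were below the controls as well. The part of the epithelial marker means, given above, in these falls was not tested. Oxct1, which activates ketone bodies, was more even with 9.65, 9.17, 9.25, 9.80 and 9.85 in DSS mice, against 10.65, 10.49 and 10.67 in controls (-1.06 ± 0.15), and the short-chain dehydrogenase Acads (-0.82 ± 0.27) and the hydratase Echs1 (-0.97 ± 0.14) fell. Hcar2, the butyrate and niacin receptor, rose by 1.02 ± 0.22 (adjusted p = 0.0591 with the 8 arrays alone). The carnitine transferase Cpt1a (-0.15 ± 0.15) and Hadha (-0.23 ± 0.14) did not pass the test. Of 28 measured genes 3 rose (10.7%) and 16 fell (57.1%), against 19.4% and 21.8% of all genes (median -0.57). With the 8 arrays alone 0 rose and 5 fell, against 12.9% and 16.0% of all genes. The number that fell in that fit was thus near the share of all genes. The rise counted 1 gene without DSS replicate 2, and likewise without control replicate 2 or without control replicate 3. In the fit on the 8 arrays, the call of Acads ended (adjusted p = 0.178). The call of Acads ended without any one of DSS replicates 1 and 3 and control replicates 2 and 3 (adjusted p between 0.0529 and 0.0721).

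Of 19 measured genes of the citric acid cycle 15 fell (78.9%) and 0 rose, against 21.8% and 19.4% of all genes. The median was -0.50, and 9 fell with the 8 arrays alone. Idh3a, a subunit of the rate-setting isocitrate dehydrogenase, had 10.39, 10.34, 9.98, 10.56 and 10.44 in DSS mice, against 11.33, 11.32 and 11.36 in controls (1.99-fold lower in DSS mice, adjusted p = 3.22e-08). Suclg1 fell (-0.93 ± 0.17), Sdhd (-0.77 ± 0.15), fumarase Fh1 (-0.68 ± 0.12), citrate synthase Cs (-0.54 ± 0.13) and Mdh2 (-0.50 ± 0.08). Sdhc (-0.16 ± 0.12), Dlst (-0.14 ± 0.07), Dld (-0.24 ± 0.12) and Dlat (-0.25 ± 0.10) did not pass the test. Without the other groups in the fit, the call of Cs ended (adjusted p = 0.055).

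Of 20 measured genes of cholesterol synthesis and uptake 9 fell (45.0%) and 0 rose (median -0.40), against 21.8% and 19.4% of all genes. The number that fell was between 4 and 5 without any one of DSS replicates 1, 2 and 3 and of control replicates 2 and 3. With the 8 arrays alone 4 of the 20 fell, against 16.0% of all genes in that fit. Ebp, a sterol isomerase, had 8.70, 8.96, 8.68, 9.20 and 9.06 in DSS mice, against 9.78, 9.80 and 10.02 in controls (-0.95 ± 0.13, adjusted p = 1.18e-06), and Tm7sf2 (-1.08 ± 0.20) and Dhcr7 (-0.99 ± 0.20), reductases of sterol intermediates, fell. Hmgcs1 (-0.32 ± 0.24), Fdft1 (-0.19 ± 0.28) and Msmo1 (-0.50 ± 0.29) did not pass the test. The sterol element TCACNCCAC, on either strand, is held by 1.22% of the 27025 RefSeq promoters (GRCm38.p6, 250 bases before the start) and by 1 of 16 list members with a promoter, Hmgcs1, and by 0 of 8 that fell. On these 8 arrays alone, the call of Dhcr7 ended (adjusted p = 0.0539).

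Chaperones of the endoplasmic reticulum fold secreted proteins. Of 23 measured genes of the unfolded protein response 4 rose and 2 fell (median 0.07). The shares were 17.4% and 8.7%, against 19.4% and 21.8% of all genes. The rise counted 0 genes without DSS replicate 3 and 0 without control replicate 3. Hspa5, the central chaperone, had 12.29, 12.20, 12.37, 11.80 and 11.99 in DSS mice, against 11.80, 11.77 and 11.64 in controls (0.39 ± 0.16, adjusted p = 0.0472). Hsp90b1 had 12.53, 12.48, 12.58, 12.26 and 12.29 in DSS mice, against 12.15, 12.02 and 11.97 in controls and Dnajc3 10.87, 10.89, 10.92, 10.82 and 10.69 in DSS mice, against 10.56, 10.59 and 10.47 in controls, small rises in every mouse. Their calls ended for Hspa5 without any one of DSS replicates 1, 2 and 3 and control replicates 1, 2 and 3 (adjusted p between 0.0676 and 0.166), for Hsp90b1 without any one of DSS replicates 1 and 3 and control replicates 2 and 3 (adjusted p between 0.0585 and 0.113) and for Dnajc3 without any one of DSS replicate 3 and control replicates 1 and 3 (adjusted p between 0.0504 and 0.114). Ern2, the stress sensor of goblet cells, had 9.11, 10.10, 8.20, 10.96 and 10.53 in DSS mice, against 10.81, 11.02 and 10.77 in controls (-1.09 ± 0.32, adjusted p = 0.00757, and 0.176 with the 8 arrays alone). DSS replicate 4 lay among the controls and replicate 3 far below. The ER stress element, CCAAT and CCACG separated by 9 bases on either strand, is held by 0.13% of all promoters of the 250-base length and by 9 of 19 list members, including 4 of 4 that rose and 0 of 1 that fell. Members that were not called, such as Calr, hold it too. The Hspa5 promoter shows it in capitals in the 120 bases before the start, chr2:34771970-34772089, plus strand (RefSeq, GRCm38.p6). When the 8 arrays were fitted alone, the call of Hspa5 ended (adjusted p = 0.0546).
Hspa5: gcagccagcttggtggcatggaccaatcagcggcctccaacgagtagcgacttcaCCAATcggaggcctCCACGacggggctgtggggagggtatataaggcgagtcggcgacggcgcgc

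In the amino acid branch of the stress response 6 of 22 measured genes rose and 2 fell (median 0.22). The shares were 27.3% and 9.09%, against 19.4% and 21.8% of all genes. Slc7a11, the cystine importer, had 9.26, 9.28, 11.32, 9.03 and 8.82 in DSS mice, against 7.25, 7.32 and 6.97 in controls (2.36 ± 0.49, adjusted p = 0.000313). Cebpb, a transcription factor of inflammation, rose by 1.19 ± 0.21 and Psat1, of serine synthesis, by 0.80 ± 0.23. Atf3, an immediate stress gene, went the other way with 8.24, 8.71, 8.74, 8.70 and 8.33 in DSS mice, against 10.18, 9.90 and 9.40 in controls (-1.28 ± 0.20, adjusted p = 1.12e-05). Atf4 (0.14 ± 0.10) and Ddit3 (-0.15 ± 0.16) themselves did not pass the test.

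Few cell cycle genes were called. Of 26 measured 0 rose and 2 fell in limma, Tyms (-0.59 ± 0.13) and Mcm7 (-0.46 ± 0.17), with a median of -0.11, against 19.4% higher and 21.8% lower among all genes. The number that fell was 5 without DSS replicate 1 and 1 without control replicate 3, and the median was between -0.25 (without control replicate 3) and 0.01 (without control replicate 2). The call of Mcm7 ended without any one of DSS replicates 2, 3 and 5 and control replicates 2 and 3 (adjusted p between 0.0517 and 0.163). Mki67 (-0.04 ± 0.23), Top2a (0.00 ± 0.25) and Pcna (-0.05 ± 0.14) had adjusted p values of 0.913, 0.994 and 0.813. The list means were 9.75, 9.20, 9.31, 9.40 and 9.33 in DSS mice, against 9.46, 9.79 and 9.37 in controls.

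Transcription factors and nuclear receptors of epithelium had the lowest median of the 24 lists. Of 29 measured 21 fell (72.4%) and 0 rose (median -0.83), against 21.8% and 19.4% of all genes. With the 8 arrays alone 9 fell. Atoh1, the switch to the secretory lineage, had 8.69, 10.54, 7.22, 11.35 and 10.44 in DSS mice, against 11.52, 11.88 and 11.69 in controls (-2.05 ± 0.48, adjusted p = 0.000959, and 0.101 with the 8 arrays alone). Nr3c2, the mineralocorticoid receptor that drives sodium uptake, had 8.30, 9.54, 7.57, 9.89 and 9.84 in DSS mice, against 10.84, 10.76 and 10.87 in controls (-1.80 ± 0.31), and Hnf4g, a regulator of enterocyte genes, had 7.76, 9.02, 6.87, 9.31 and 9.11 in DSS mice, against 10.06, 9.94 and 10.01 in controls (-1.59 ± 0.32). In all 3 genes each DSS mouse was below each control, DSS replicate 3 was lowest and replicate 4 highest. The vitamin D receptor Vdr (-1.63 ± 0.36), Foxa3 (-1.53 ± 0.28), Nr5a2 (-1.41 ± 0.33), the xenobiotic sensor Nr1i2 (-1.35 ± 0.33) and the thyroid receptor Thrb (-1.27 ± 0.17) also fell. Other factors of the same cells did not pass: the caudal factor Cdx2 had 9.97, 10.87, 8.69, 11.10 and 10.93 in DSS mice, against 10.40, 10.75 and 10.35 in controls (-0.19 ± 0.46, adjusted p = 0.768) and Pparg 10.07, 10.65, 9.39, 10.79 and 10.73 in DSS mice, against 10.34, 10.42 and 10.38 in controls (-0.06 ± 0.22, adjusted p = 0.857). For these 2 genes DSS replicates 2, 4 and 5 were above the controls and replicate 3 was lowest. The epithelial marker means given above were low in DSS replicates 1 and 3, and their part in these falls was not tested. With the 8 arrays alone, the calls of Hnf4g, Vdr, Nr5a2 and Nr1i2 ended (adjusted p = 0.057, 0.087, 0.085 and 0.116 in that order).

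Enzymes that build mucin sugars changed in both directions. St3gal1, which caps core 1 glycans, had 11.51, 11.23, 11.71, 10.69 and 10.93 in DSS mice, against 8.81, 9.15 and 8.81 in controls (4.9-fold, 2.29 ± 0.35, adjusted p = 6.75e-06), while St3gal6 had 9.84, 9.42, 9.58, 10.13 and 10.19 in DSS mice, against 11.53, 11.41 and 11.50 in controls (-1.65 ± 0.35) and St3gal4 9.39, 9.59, 9.02, 10.55 and 10.39 in DSS mice, against 11.22, 11.12 and 11.06 in controls (-1.34 ± 0.34). In each of the 3, every DSS mouse lay on the same side of the controls. The sulphate transporter Slc26a2 (-1.36 ± 0.34, adjusted p = 0.105 with the 8 arrays alone), Chst4 (-1.25 ± 0.32) and Galnt7 (-1.10 ± 0.28) fell, while Gcnt4 rose by 1.19 ± 0.28. Agr2 (-0.26 ± 0.24), the goblet cell disulphide isomerase, and Fut2 (-0.19 ± 0.31) did not pass the test. In all, 2 of 25 measured genes rose (8.0%) and 12 fell (48.0%), against 19.4% and 21.8% of all genes. The median was -0.54, and -0.27 without DSS replicate 3. With the 8 arrays alone 2 rose and 5 fell, against 12.9% and 16.0% of all genes. In the fit on the 8 arrays, the calls of Chst4 and Galnt7 ended (adjusted p = 0.0519 and 0.122 in that order).

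Hox genes record the position along the gut. Hoxb13, which marks its most distal part, had 7.59, 6.35, 7.69, 7.58 and 7.84 in DSS mice, against 11.74, 11.41 and 11.80 in controls (-4.24 ± 0.90, adjusted p = 0.000358). Every DSS mouse was more than 3 units below every control. Hoxb3, Hoxb4 and Hoxb5, of the same cluster but not next to Hoxb13, were higher in every DSS mouse. Hoxb3 had 9.15, 9.75, 9.26, 9.07 and 8.89 in DSS mice, against 8.29, 8.45 and 8.49 in controls, Hoxb4 7.68, 8.30, 7.77, 7.60 and 7.57 in DSS mice, against 6.97, 6.94 and 7.05 in controls and Hoxb5 8.15, 9.09, 8.07, 8.22 and 7.81 in DSS mice, against 7.29, 7.21 and 7.27 in controls. Of these Hoxb3 passed (adjusted p = 0.0326), a call that ended without any one of DSS replicates 2 and 3 and control replicates 1, 2 and 3 (adjusted p between 0.051 and 0.0908), while Hoxb4 and Hoxb5 did not (adjusted p = 0.0865 and 0.139, and 0.0102 and 0.0209 with the 8 arrays alone). Hoxa11 rose by 0.86 ± 0.19, and Hoxd13 and Hoxa13, the other posterior genes, were at -0.79 ± 0.57 and -0.44 ± 0.42 (adjusted p = 0.267 and 0.423). The labels do not say from which part of the colon the RNA came. Of 32 measured Hox genes 3 rose and 2 fell (median 0.12, and 0.04 without DSS replicate 2), with 1 rising without control replicate 2 and 6 with the 8 arrays alone. The shares were 9.38% and 6.25%, both under the 19.4% and 21.8% of all genes.

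Of 20 measured genes of the enteric nervous system 10 rose and 0 fell (median 0.39, 6 higher without control replicate 2). Nos1, the synthase of inhibitory motor neurons, had 9.97, 9.83, 9.77, 9.33 and 9.45 in DSS mice, against 8.44, 8.24 and 8.35 in controls (1.33 ± 0.23, adjusted p = 4.04e-05). Ret, the receptor for glial cell line-derived neurotrophic factor, had 9.37, 10.09, 9.15, 9.20 and 9.61 in DSS mice, against 8.38, 8.33 and 8.39 in controls (1.12 ± 0.18, adjusted p = 1.29e-05). Gfap, a filament of reactive glia, had 8.35, 8.92, 8.55, 8.07 and 7.64 in DSS mice, against 7.21, 7.22 and 7.38 in controls (1.04 ± 0.22), and Sox10, of glia, rose by 0.43 ± 0.08. In these genes all DSS mice were above all controls. The list means were 8.71, 8.62, 8.78, 8.27 and 8.22 in DSS mice, against 8.09, 7.96 and 8.14 in controls, lowest among DSS mice in replicates 4 and 5. The peptide Vip was at -0.15 ± 0.37 (adjusted p = 0.77), and the general neuronal genes Snap25 (0.37 ± 0.23), Stmn2 (0.50 ± 0.25) and Uchl1 (0.24 ± 0.21) did not pass the test. Smooth muscle marker means, given above, overlapped between the groups.

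Circadian clock genes run in feedback loops in most cells of the gut. Arntl, the activator of the circadian loop, had DSS values of 8.81 to 9.20, against 10.04 to 10.39 in controls (-1.23 ± 0.32, adjusted p = 0.00289), and Per1 had 10.21, 10.20, 9.52, 10.15 and 9.99 in DSS mice, against 9.33, 9.22 and 9.23 in controls (0.76 ± 0.21, adjusted p = 0.00529). Nfil3, a repressor of clock outputs that cytokines also induce, had 10.09, 10.25, 10.63, 9.07 and 9.26 in DSS mice, against 8.41, 8.60 and 8.40 in controls (1.39 ± 0.33). Rora rose by 0.64 ± 0.15 and Clock fell (-0.38 ± 0.15), a call that ended without any one of DSS replicates 2 and 3 and control replicates 1 and 3 (adjusted p between 0.077 and 0.122). The repressors Nr1d1 (0.36 ± 0.34) and Nr1d2 (0.67 ± 0.28) did not pass (adjusted p = 0.412 and 0.0524). In all 3 of 17 measured genes rose and 2 fell, shares of 17.6% and 11.8%, against 19.4% and 21.8% of all genes. With the 8 arrays alone 6 rose, and the median of 0.36 was 0.12 without control replicate 2. The clock E-box CACGTG is held by 6.86% of RefSeq promoters of the same length and by 5 of 15 clock genes with a promoter, 1 of 3 that rose and 0 of 2 that fell. The labels give no hour of sampling.

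**Figure D4:**
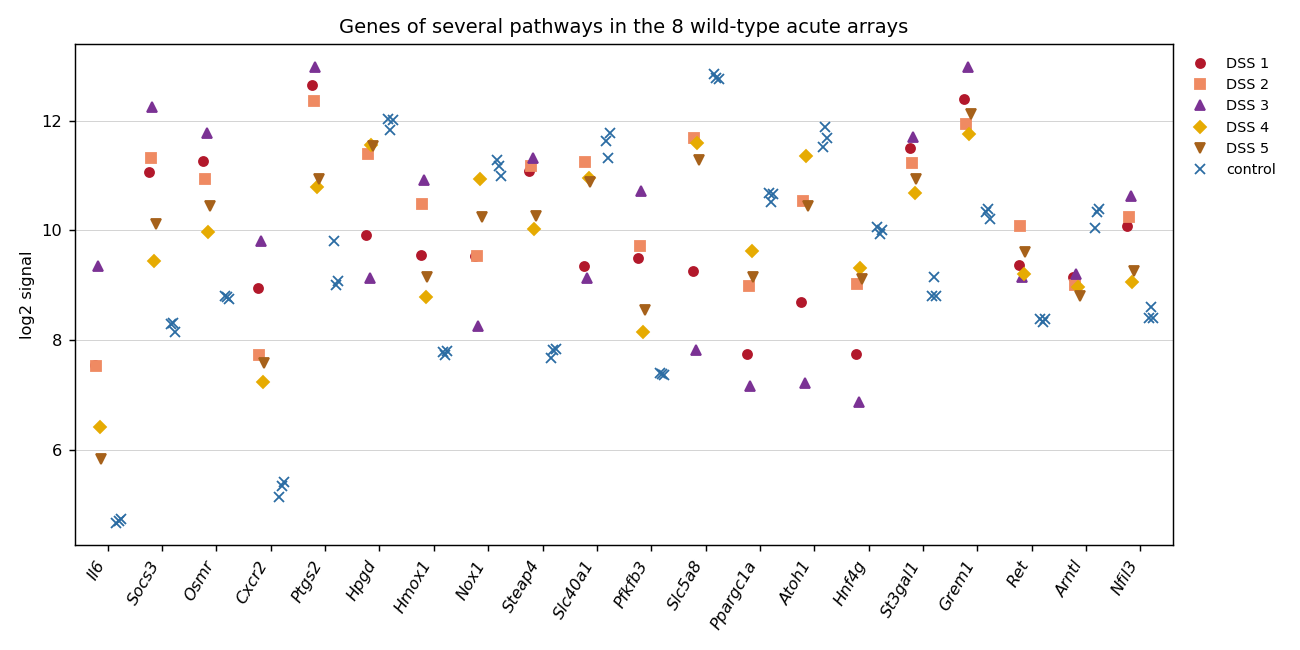
Log2 signal of 20 genes from several pathways in the 8 wild-type acute arrays. DSS arrays have 1 symbol each and the 3 controls are crosses. Il6 and Socs3 are highest in DSS replicate 3, the falls of Slc5a8, Ppargc1a, Atoh1 and Hnf4g are deepest in DSS replicates 3 and 1, and Arntl lies within 8.81 to 9.20 in all DSS arrays.

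The array also carries probe sets for microRNA genes, which read RNA of the locus or its precursor and not the mature strand. These loci were chosen after their values were seen. Of 296 measured loci 68 rose (23.0%) and 18 fell (6.08%), against 19.4% and 21.8% of all genes. The share that rose was thus near that of all genes, and the share that fell was below it. The median was 0.08, and 9 loci that passed differed by at least 0.8. The mature strands are from RefSeq (GRCm38.p6) and are shown for 4 loci that fell (Mir200b, Mir200a, Mir192 and Mir196a-1) and for Mir99a and Mir142, which rose. The mature strands themselves were not measured. The seed, bases 2 to 8, is in capitals. The seeds of miR-200b and miR-200a differ, and the loci lie next to each other.
miR-200b-3p, chr4:156055685-156055706, minus strand: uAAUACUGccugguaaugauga
miR-200a-3p, chr4:156054911-156054932, minus strand: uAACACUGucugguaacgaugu
miR-192-5p, chr19:6264857-6264877, plus strand: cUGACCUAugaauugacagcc
miR-196a-5p, chr11:96265187-96265208, plus strand: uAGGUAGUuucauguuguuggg
miR-99a-5p, chr16:77598940-77598961, plus strand: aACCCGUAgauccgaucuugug
miR-142a-3p, chr11:87756903-87756925, plus strand: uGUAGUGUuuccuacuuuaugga

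Several of the microRNAs whose loci fell are known from epithelium. Mir200b had 6.26, 8.48, 6.08, 8.81 and 7.94 in DSS mice, against 9.49, 8.94 and 9.06 in controls (-1.65 ± 0.43, adjusted p = 0.00252, and 0.0881 with the 8 arrays alone), and Mir200a had 6.98, 7.83, 6.72, 7.94 and 7.49 in DSS mice, against 8.55, 7.91 and 8.35 in controls (-0.88 ± 0.22). Their mature strands are known repressors of the mesenchymal factors Zeb1 and Zeb2, and both loci were lowest in DSS replicates 3 and 1. Mir192, abundant in gut epithelium, had 6.32, 7.96, 6.08, 7.63 and 7.26 in DSS mice, against 8.80, 8.37 and 8.59 in controls (-1.54 ± 0.30, adjusted p = 0.000122), and Mir196a-1, in the Hoxb cluster, had 7.10, 8.37, 6.23, 8.86 and 8.28 in DSS mice, against 9.11, 8.97 and 8.88 in controls (-1.22 ± 0.36). Mir142, of blood cells, rose by 0.93 ± 0.31, highest in DSS replicate 3. The largest rise was that of Mir145a, with 11.54, 10.88, 10.40, 10.62 and 10.62 in DSS mice, against 8.52, 8.92 and 8.97 in controls (4.02-fold, 2.01 ± 0.33, adjusted p = 1.87e-05), and its neighbour Mir143 had 10.21, 9.96, 9.38, 9.27 and 9.24 in DSS mice, against 8.42, 8.38 and 8.39 in controls (1.22 ± 0.27). Both are known from smooth muscle, whose marker means overlapped between the groups as given above. Mir99a had 7.33, 7.25, 7.27, 7.06 and 7.14 in DSS mice, against 6.24, 6.31 and 6.12 in controls (0.99 ± 0.15, adjusted p = 4.86e-06), nearly the same in all DSS mice, and Mir421 had 6.27, 6.16, 6.25, 5.99 and 6.03 in DSS mice, against 5.37, 5.35 and 5.25 in controls (0.82 ± 0.19). Without the other groups in the fit, the calls of Mir200a, Mir196a-1 and Mir142 ended (adjusted p = 0.0561, 0.126 and 0.101 in that order). The call of Mir142 ended without any one of DSS replicate 3 and control replicate 3 (adjusted p between 0.0707 and 0.0811).

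The wild-type acute effect was then set beside the acute effect in Timp1 knockout mice and the chronic effect in wild-type mice. The 3 comparisons use different arrays. Their animals come from different series of animal numbers in the labels, with all wild-type acute mice and knockout DSS replicates 1 to 3 in the same one. For the knockout controls, knockout DSS replicates 4 to 6 and the chronic mice, genotype or phase cannot be told apart from the series. The knockout controls are all in another series than knockout DSS replicates 1 to 3. The knockout DSS effect is therefore partly mixed with the series, and so is the test between genotypes. The part of the series in these results was not tested. In the knockout acute comparison 223 genes passed (1.12%), and in the chronic comparison 2864 (14.4%, with 5.79% higher). The test of the difference itself passed for 2444 genes between genotypes (12.3%, with 5.75% higher and 6.51% lower in the wild-type effect). Between phases it passed for 3392 genes, with 7.71% higher and 9.3% lower in the acute effect.

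The medians of the lists were set side by side. Those in wild-type acute, knockout acute and wild-type chronic mice were -0.83, -0.17 and -0.17 for epithelial transcription factors, -0.50, -0.15 and -0.17 for the citric acid cycle, 0.84, 0.28 and 0.57 for leukocyte adhesion, and 0.63, 0.15 and 0.21 for coagulation. Not every list differed in this way. In the same order the medians were 0.37, 0.36 and 0.34 for pattern recognition and 0.13, 0.15 and 0.08 for hypoxia and glycolysis. For NADPH oxidases they were 0.27, 0.24 and 0.48, largest in chronic mice. The difference between genotypes passed for 8 of the 29 transcription factors, all of them lower in the wild-type effect, and the difference between phases for 9. For the nervous system list 6 of 20 genes had a higher effect in wild type than in knockout and 8 a higher effect in the acute than in the chronic phase, with 0 and 0 lower. Of the Wnt and BMP genes 9 of 28 had a higher effect in the acute phase and 0 a lower one. Of the 23 unfolded protein response genes 4 rose in acute and 13 in chronic DSS, and the effect was lower in the acute phase for 6 and higher for 0. Clock genes had medians of 0.36 in wild-type acute, -0.57 in knockout acute and -0.21 in wild-type chronic mice, with 7 of 17 genes higher and 2 lower in the wild-type than in the knockout effect.

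**Figure D5:**
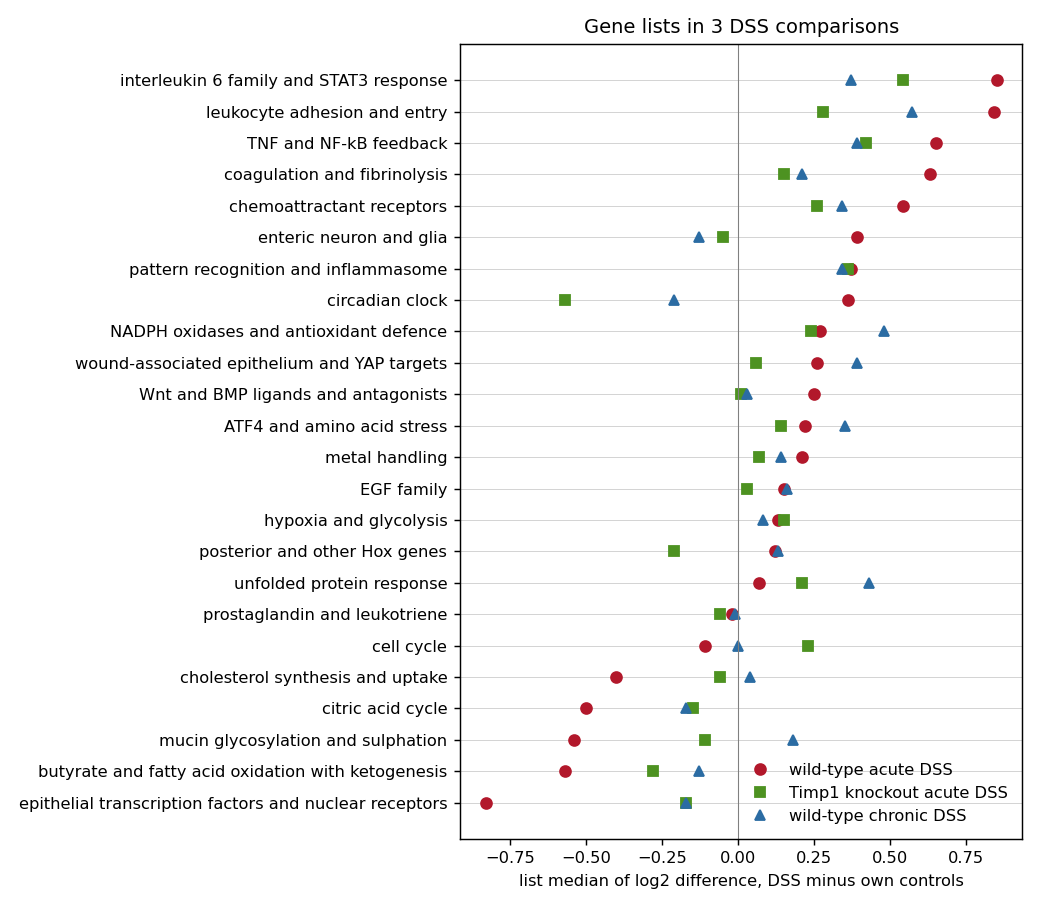
Median over the members of each of 24 gene lists of the log2 difference between DSS mice and their own controls, in wild-type acute (red circles), Timp1 knockout acute (green squares) and wild-type chronic (blue triangles) mice. The wild-type acute medians are the outermost for the 5 lists at the top and the 5 at the bottom, and the knockout median of the clock list lies at -0.57.

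Single genes show where the acute wild-type effect differed. Pi15, a secreted peptidase inhibitor, had 9.63, 10.02, 9.96, 8.51 and 9.16 in DSS mice, against 6.43, 6.36 and 6.56 in controls in the acute phase. Its effect was 3.01 ± 0.38 there, against -0.15 ± 0.33 in chronic mice, a difference of 3.15 ± 0.50 (adjusted p = 0.000257). Ighm, the heavy chain of immunoglobulin M, was at -1.43 ± 0.81 in the acute phase (adjusted p = 0.157) and at 2.71 ± 0.70 in the chronic phase, a difference of -4.14 ± 1.07 (adjusted p = 0.00852). Between genotypes Ces1g, a carboxylesterase, had 11.32, 9.96, 10.73, 9.51 and 10.29 in DSS mice, against 8.35, 8.95 and 8.58 in controls among wild-type acute mice. Its effect was 1.74 ± 0.68 there, against -2.12 ± 0.65 in knockout mice, and the effects differed by 3.86 ± 0.94 (adjusted p = 0.00912). Its call in wild-type acute mice ended without any one of DSS replicates 1, 3 and 5 and control replicates 1, 2 and 3 (adjusted p between 0.0503 and 0.104). Capn13, a calpain, fell (-2.88 ± 0.49) in wild-type mice against -0.02 ± 0.47 in knockout mice (difference of effects -2.86 ± 0.68, adjusted p = 0.00772). Mir145a also differed, by 2.30 ± 0.46 between genotypes (adjusted p = 0.00279) and by 2.66 ± 0.44 between phases (adjusted p = 0.000337), and Mir99a by 0.80 ± 0.20 and 1.17 ± 0.19 (adjusted p = 0.0114 and 0.000351).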

How the data were processed

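The study ran 37 arrays (Affymetrix Mouse Gene 1.0 ST), each holding RNA from the frozen colon of 1 animal. The deposited log2 values were made by the authors with RMA (background correction, quantile normalization and summary over probes), per the submitters' processing notes, whose version is not given in the sources used here. Quantile normalization removes differences in total signal between arrays. Groups were taken from the labels, and replicates were numbered in accession order.

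Of 35511 transcript clusters 21789 had 1 gene symbol, 1621 had several and 12101 had none in the platform annotation, and only the first kind was used. For the 999 genes with several clusters the one with the highest mean was kept, which gave 19938 genes. All 37 arrays entered 1 linear model in which the 8 groups had their own means (limma 3.58.1 in R 4.3.3, empirical Bayes, Benjamini-Hochberg adjustment over all genes, called under 0.05). On simulated data for the wild-type acute comparison over 19938 genes, 61.2%, 91.0% and 98.5% of genes changed by 0.5, 1 and 2 log2 units were recovered, and 1.76% of calls were false. The simulation gave every group the same SD per gene and changed only a small part of the genes. In the data the DSS arrays spread more and many genes were called, so these rates need not hold there. The number of arrays limits the precision.

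The members and lists were chosen with earlier results of these data known. Named genes were those at ranks 11 to 30 in each direction, the largest called and brightest uncalled members of each list, other list members where needed to complete a pathway, the 10 most even and 10 most uneven called genes, and the 6 largest differences between effects in each of 2 interaction tests. The alternatives were a fit on the 8 arrays alone, an empirical Bayes prior that follows signal and resists outliers, dropping the dimmest 1 in 3 genes, testing each cluster, cyclic loess, array weights per group, and leaving out each of 8 arrays. Sequences are RefSeq's for GRCm38.p6.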

Additional observations from a re-analysis of the deposited data

Results flagged for a closer look

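Of the 284 named genes tested, 11 had 1 of the 5 DSS arrays far from the other 4, by Dixon's criterion, which chance alone meets in about 1 in 20 groups. The share is no larger than that, but the genes share the same 5 arrays and some were named for their DSS spread. The rate holds for independent groups, so no conclusion is drawn from the count. DSS replicate 3 was the far array for Ankrd1 (6.96), Birc3 (10.76), Epgn (8.40), Itgax (9.40), Jak2 (11.05) and Slc7a11 (11.32). DSS replicate 2 was the far array for Hoxb13 (6.35), Hoxb4 (8.30), Naaladl1 (8.25) and Ptger4 (9.05), and DSS replicate 5 for Slc35e3 (7.53). Of the 33 list means tested, which share the same arrays, 2 met it: that of pattern recognition genes was 9.51 in DSS replicate 3 and that of metal handling genes 9.97 in DSS replicate 2. That is again near the 1 in 20 rate, with the same limit.

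The acute DSS effect differed between wild-type and knockout mice in limma's interaction test, as wild-type minus knockout on the log2 scale, for Ces1g (3.86 ± 0.94, adjusted p = 0.00912), Atp12a (-3.81 ± 1.28, adjusted p = 0.0476), Saa3 (3.51 ± 1.01, adjusted p = 0.0219), Capn13 (-2.86 ± 0.68, adjusted p = 0.00772), Hp (2.79 ± 0.77, adjusted p = 0.0181) and Reg4 (-2.68 ± 0.83, adjusted p = 0.0324). The wild-type effect differed between phases, as acute minus chronic, for Ighm (-4.14 ± 1.07, adjusted p = 0.00852), Pi15 (3.15 ± 0.50, adjusted p = 0.000257), Cxcl2 (3.11 ± 0.77, adjusted p = 0.00685), Ctse (-3.00 ± 0.81, adjusted p = 0.0112), Saa3 (2.92 ± 0.96, adjusted p = 0.0331) and Reg4 (-2.91 ± 0.79, adjusted p = 0.0119). These are the 6 largest differences of each test.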

How the results depend on the processing

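No paired analysis was possible because the labels give each animal a number of its own. With the 8 arrays alone 2565 genes were higher, against 3863, and leaving out 1 array gave 2575 to 3904, the lowest without control replicate 3. Without the dimmest 1 in 3 genes the median differences were 0.04 for pattern recognition genes and 0.04 for the EGF family. After cyclic loess they were 0.40 for NADPH oxidases, 0.25 for hypoxia and glycolysis, 0.18 for the unfolded protein response and 0.36 for wound-associated genes. Leaving out 1 array gave medians of 0.19 to 0.31 for wound-associated genes, the lowest without DSS replicate 2, and of 0.12 to 0.38 for clock genes, the lowest without control replicate 2. The causes were not tested.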
